A study of Mus musculus with 2 samples.

Results

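Sparc, Olfml3, Tmem119, Crybb1, Selplg, Ecscr and Ltc4s are 7 genes whose RNA is abundant in undisturbed microglia, the resident macrophages of the brain. They were chosen by symbol among the 32285 genes of a droplet single-cell count matrix, and all 7 were found and passed the filter on low counts in every comparison. The matrix holds CD11b+ CD45+ Ly6G- CD206- cells sorted from perfused brains of mice with 1 copy of the Cx3cr1CreERT2(Litt) allele, in which the fractalkine receptor gene Cx3cr1 drives a Cre recombinase that tamoxifen activates. Mice were 12 weeks old and had received TAM (tamoxifen, an estrogen receptor ligand) or oil, its vehicle, for 4 weeks, so the allele was shared by both treatments and mice without it were not analysed here. Cells carried antibody barcodes (hashtags) named TAM1 to TAM5 and Oil1 to Oil5 and were run as 1 pool. Whether hashtags stand for separate mice is not stated, so the hashtag-to-hashtag spread behind the p-values may be technical. The main test (edgeR) also shares its estimate of spread across genes. In states with few hashtags its p-values can therefore be far smaller than a test on those hashtags alone could give. After removal of mixed and unassigned barcodes, 7527 cells in 6 microglia-like clusters were kept, 584 to 901 per hashtag, with 2953921 to 4795275 UMIs (distinct RNA molecules) per hashtag.

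Homeostatic microglia continuously survey the tissue, and they carry a set of transcripts that distinguishes them from other macrophages and that is known to decline when microglia respond to damage or are removed from the brain. Among the members are 2 genes for secreted proteins. Sparc encodes a collagen-binding matricellular glycoprotein, and Olfml3 a secreted olfactomedin-domain protein. Of the surface proteins, Tmem119 is a transmembrane protein widely used as a microglial marker, Selplg (PSGL-1) is the mucin that binds selectins, and Ecscr is a transmembrane protein first described in endothelial cells. Ltc4s encodes leukotriene C4 synthase, which joins glutathione to leukotriene A4 at intracellular membranes, and Crybb1 encodes a beta-crystallin, a protein family best known from the lens.

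RefSeq promoter windows (GRCm38.p6, 250 bases before to 50 after the gene start) were at hand for 4 of the 7 members. They are shown because Sparc and Olfml3 are the members that fell with TAM, Crybb1 the member that fell most in activated cells and Ltc4s a member that fell steeply in dividing cells. Each is written 5′ to 3′ on the gene's strand, and capitals mark GAGGAA, a core sequence bound by the myeloid factor PU.1, or TATAAA, the TATA box, searched on both strands; neither motif overlaps the other.
Sparc: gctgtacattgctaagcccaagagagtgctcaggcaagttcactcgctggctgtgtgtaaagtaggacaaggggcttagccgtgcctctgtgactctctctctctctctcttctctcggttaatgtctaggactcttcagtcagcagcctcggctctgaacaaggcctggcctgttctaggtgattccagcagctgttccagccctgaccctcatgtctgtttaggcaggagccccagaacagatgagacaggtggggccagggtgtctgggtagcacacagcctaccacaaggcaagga
Olfml3: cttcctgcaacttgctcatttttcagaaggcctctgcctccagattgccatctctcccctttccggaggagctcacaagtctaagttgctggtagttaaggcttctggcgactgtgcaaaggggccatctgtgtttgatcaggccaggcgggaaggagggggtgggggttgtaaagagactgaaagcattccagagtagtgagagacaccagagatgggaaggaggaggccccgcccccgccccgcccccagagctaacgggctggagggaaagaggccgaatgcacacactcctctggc
Crybb1: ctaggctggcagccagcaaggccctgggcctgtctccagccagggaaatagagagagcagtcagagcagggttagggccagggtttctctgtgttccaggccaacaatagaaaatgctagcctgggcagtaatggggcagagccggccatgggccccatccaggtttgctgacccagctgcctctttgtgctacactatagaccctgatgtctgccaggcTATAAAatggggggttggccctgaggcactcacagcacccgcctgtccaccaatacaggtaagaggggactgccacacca
Ltc4s: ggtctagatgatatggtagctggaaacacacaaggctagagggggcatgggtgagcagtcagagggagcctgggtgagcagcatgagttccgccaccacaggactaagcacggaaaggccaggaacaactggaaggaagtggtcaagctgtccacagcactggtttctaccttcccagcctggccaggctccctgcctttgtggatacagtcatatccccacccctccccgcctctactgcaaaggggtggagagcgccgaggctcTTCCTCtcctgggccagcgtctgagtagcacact
The windows are Sparc chr11:55420031-55420330, Olfml3 chr3:103737952-103738251 and Ltc4s chr11:50238483-50238782 on the minus strand, and Crybb1 chr5:112255570-112255869 on the plus strand. Crybb1 had 1 TATAAA, and Ltc4s had 1 GAGGAA in its reverse form. Sparc and Olfml3 had neither motif. Of 32851 promoter windows of this length, 28.3% held GAGGAA and 13.6% held TATAAA, so a match is a description of these letters only.

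The 7 genes lie on 4 chromosomes in the GRCm38 build (GENCODE M21 gene models). Sparc (chr11:55394500-55423183) and Ltc4s (chr11:50236461-50238616) are on the minus strand of chromosome 11. The Sparc promoter window above was placed by the RefSeq gene start and lies wholly inside this GENCODE model of Sparc. Olfml3 (chr3:103722222-103738001) is on the minus strand of chromosome 3. Tmem119 (chr5:113793729-113800516) and Selplg (chr5:113818536-113832644) are both on the minus strand of chromosome 5 and are separated by 18019 bases. Crybb1 (chr5:112255815-112269585) is on the plus strand of the same chromosome, and Ecscr (chr18:35713086-35722356) is on the minus strand of chromosome 18. Ltc4s overlaps the antisense gene Gm26542, which received 9178 UMIs against 21424 for Ltc4s, and Ecscr overlaps 1700066B19Rik on the opposite strand, with 663 UMIs against 12492 for Ecscr. Whether the counting used strand is not given in the sources used here, so reads of these overlapping pairs could be split between the partners and both members' values are uncertain to that extent.

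The members differed widely in level and were detected in most microglia-like cells. As CPM (UMIs per 1000000 UMIs of the same cells; this 3′ assay counts molecules, and values were not divided by gene length), the 6031 resting cells, those in none of 6 gated states, held 2888 CPM of Sparc, 1873 CPM of Selplg, 1114 CPM of Olfml3, 1078 CPM of Tmem119, 568 CPM of Ltc4s, 363 CPM of Crybb1 and 330 CPM of Ecscr. Olfml3 and Tmem119, neighbours in this order, overlapped between hashtags, as did Crybb1 and Ecscr. Sparc UMIs were present in 99.8% of resting cells and Ecscr UMIs in 75.4%, at a median of 4872 UMIs per cell. When each resting cell was thinned to 2000 UMIs, which kept 5954 cells, Sparc was seen in 98.7% and Ecscr in 47.4% of them. At that depth the variance of Sparc was 1.55 to 1.90 times its mean within a hashtag, whereas that of Ecscr was 0.99 to 1.24 times its mean, where a ratio of 1 is the spread of counting alone.

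Cluster 5, a group of 52 sorted cells led by MHC class II genes and left without a name, was set beside the microglia-like clusters. Free RNA of the pool can also give UMIs in such cells, and its share was not estimated, so these values are not read as the cells' own expression. Sparc UMIs in cluster 5 came to 171 CPM, in 15.4% of cells at a median of 3684.5 UMIs, against 2644 CPM and 99.8% of cells at a median of 5377 UMIs in the largest microglia-like cluster. Selplg, which many leukocytes also express, came to 309.5 CPM in cluster 5, with UMIs in 57.7% of cells. Ecscr had 4 UMIs there in all, or 19.05 CPM (95% exact Poisson interval 5.19 to 48.8, counting error only). All 14 microglial markers fixed for the label were present in each kept cluster.

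Tamoxifen came with lower RNA of the secreted members. Sparc and Olfml3 fell with TAM, while Tmem119, Crybb1, Selplg, Ecscr and Ltc4s did not pass the test. The 2 members called, both lower, compare with 4.49% of 11168 genes called in this contrast and 2.86% called lower. The test was edgeR's quasi-likelihood F test on UMIs summed per hashtag, with Benjamini-Hochberg adjustment over all genes tested at 0.05. CPM values of this contrast are scaled by TMM, edgeR's normalization factor.

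Sparc stood at 2689, 2558, 2763, 2623 and 2552 CPM in TAM1 to TAM5, against 2873, 3272, 3118, 3227 and 3198 CPM in Oil1 to Oil5. Every TAM hashtag was below every oil hashtag, with Oil1 nearest to them; 5.26% of genes had treatments that did not overlap, and 3.13% did so with TAM lower. The means were 2637 ± 90.0 CPM in TAM and 3138 ± 158 CPM in oil (SD, n = 5 each), a log2 fold change of -0.25 ± 0.04 (SE) or 15.9% less (95% interval of the log2 fold -0.34 to -0.16, adjusted p = 0.00391, edgeR).

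Olfml3 stood at 1021, 1042, 1125, 979.8 and 1016.5 CPM in TAM1 to TAM5, against 1097, 1244, 1211, 1136 and 1257 CPM in Oil1 to Oil5. The treatments overlapped through TAM3, which lay above Oil1. Its log2 fold change was -0.20 ± 0.05 (SE), or 12.8% less (adjusted p = 0.0227, edgeR). It lost its call, with adjusted p-values up to 0.0742, when Oil2, Oil3, Oil5, TAM4 or TAM5 was left out, whereas Sparc stayed at 0.0188 or lower when any 1 hashtag was left out.

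The other members did not pass the test, and their changes were not tested against those of Sparc and Olfml3. Ecscr averaged 305 ± 24.9 CPM in TAM and 338 ± 16.5 CPM in oil, a log2 fold change of -0.15 (95% interval -0.27 to -0.02, adjusted p = 0.142, edgeR). Tmem119 averaged 1023 ± 42.8 CPM in TAM and 1079 ± 36.6 CPM in oil, with a log2 fold change of -0.08 (95% interval -0.17 to 0.01). Selplg averaged 1812 ± 72.3 CPM in TAM and 1817 ± 129 CPM in oil, and its 95% interval ran from -0.11 to 0.10 on the log2 scale. Ltc4s averaged 558 ± 39.8 CPM in TAM and 544 ± 17.5 CPM in oil, with an interval of -0.07 to 0.15. Crybb1 was the most variable member, at 260 to 467 CPM in TAM and 319 to 464 CPM in oil, and its interval of -0.35 to 0.22 is the widest of the 7. The smallest sum behind any of these values was 777 UMIs, for Ecscr. Each treatment had 5 values, and the part of counting error in their spread was not estimated.

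**Figure D1:**
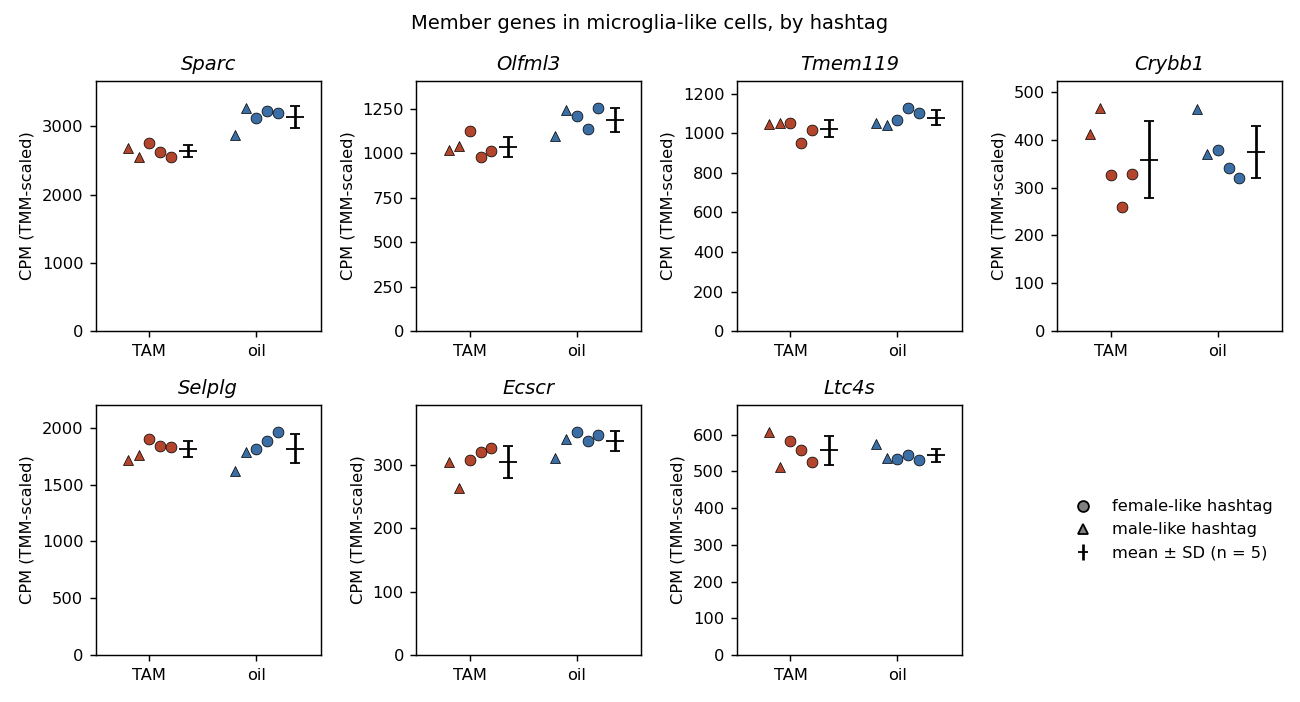
Level of each member per hashtag in microglia-like cells (CPM after TMM scaling, axes from 0), TAM left and oil right; circles are hashtags with female and triangles with male sex-linked transcripts, and bars are the mean ± SD of 5 hashtags. Sparc shows no overlap between TAM (2552 to 2763 CPM) and oil (2873 to 3272 CPM), and Selplg and Crybb1 overlap widely.

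In resting cells alone, where 3.14% of genes were called and 1.98% called lower, the same 2 members passed. Sparc had a log2 fold change of -0.22 ± 0.04 (SE, adjusted p = 0.00312, edgeR) and Olfml3 one of -0.19 ± 0.05 (adjusted p = 0.0402). Tmem119 did not overlap between treatments there, with 977.5 to 1081 CPM in TAM and 1088 to 1139 CPM in oil, but its log2 fold change of -0.09 did not pass (adjusted p = 0.244), and 4.25% of genes had no overlap, 2.44% with TAM lower. The median of the 7 members was -0.09 on the log2 scale in resting cells, against 0.00045 for all genes tested.

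Immediate early genes, which respond within minutes to cell handling among other stimuli, moved with treatment and with the hashtag's number. The mean log2 CPM of Fos, Fosb, Egr1, Ier2, Atf3, Nr4a1, Dusp1 and Btg2 was 4.51, 4.43, 3.36, 2.94 and 2.95 in TAM1 to TAM5, against 7.14, 6.24, 5.99, 5.18 and 4.56 in Oil1 to Oil5. With this level as a covariate, Sparc had a log2 fold change of -0.32 (adjusted p = 0.00926, edgeR). Olfml3 had one of -0.25 without a call (adjusted p = 0.125), and Crybb1 took a positive one of 0.51 (adjusted p = 0.0155). Every TAM level lay below every oil level, so the fit with this covariate can hardly separate it from treatment. A further covariate numbered the hashtags from 1 to 10, with Oil1 to Oil5 as 1 to 5 and TAM1 to TAM5 as 6 to 10. With it Sparc stood at -0.29 (adjusted p = 0.12, edgeR) and no member was called. All TAM numbers lie above all oil numbers, so this fit can hardly separate order from treatment. Without Oil1, Oil2 and Oil3, Sparc alone was called, at -0.28 (adjusted p = 0.0361).

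Sparc and Olfml3 also differed between the main clusters, which were made without the 7 members. Cluster 3, the largest with 3321 cells, had less Sparc than cluster 0, with 2319 cells, in 10 of 10 hashtags, by a mean log2 difference of -0.28 ± 0.06 (SD), and less Olfml3, by -0.27 ± 0.10. Tmem119, Selplg and Ltc4s were likewise lower in cluster 3 in 10 of 10 hashtags, Ltc4s by -0.45 ± 0.11, and Crybb1 and Ecscr in 9 of 10. These are descriptions, since clusters follow correlated genes. Cluster 3 held 53.7% to 71.8% of resting TAM cells per hashtag, against 20.1% to 45.8% of resting oil cells, and this difference moves with the TAM contrast.

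Within each of these clusters Sparc, Olfml3 and Tmem119 had log2 fold changes nearer to 0 than in all cells, a difference that was not tested, and the other members did not share this in both clusters. Ltc4s stood at 0.24 in cluster 3 and 0.11 in cluster 0, against 0.04 in all cells, without a call in any of them. In cluster 3, Sparc averaged 2563 ± 110 CPM in TAM and 2733 ± 166 CPM in oil, a log2 fold change of -0.11 ± 0.05 (SE, adjusted p = 0.497, edgeR). In cluster 0, an analysis chosen after seeing the data, Sparc averaged 3026 ± 142 CPM in TAM and 3392 ± 128 CPM in oil, a log2 fold change of -0.18 ± 0.04 (adjusted p = 0.0302). Olfml3 was not called in either cluster, with log2 fold changes of -0.10 in cluster 3 and -0.11 in cluster 0. The part of cluster composition in the pooled contrast was not tested.

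**Figure D2:**
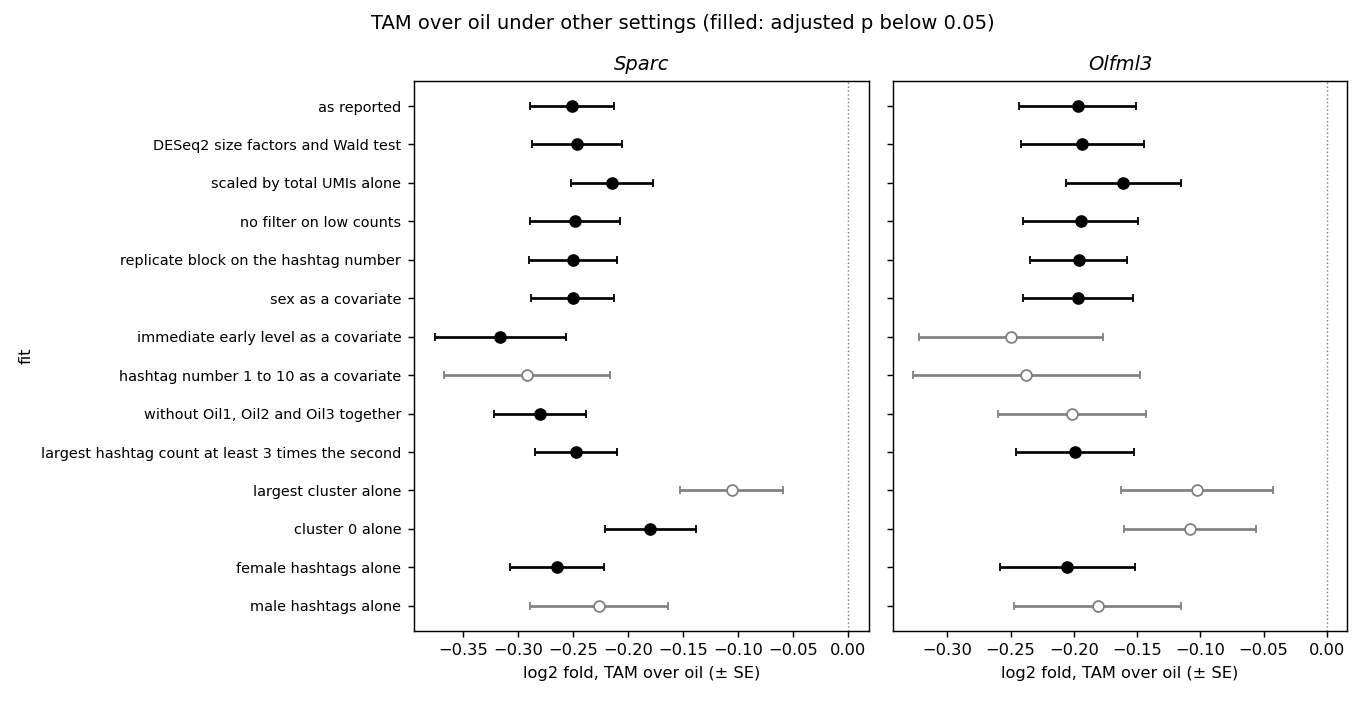
Log2 fold change of TAM over oil for Sparc and Olfml3 (x axes, ± SE) as reported and under 13 other settings; filled points have an adjusted p below 0.05. Every point lies below 0; Sparc ranges from -0.32 with the immediate early covariate to -0.11 in the largest cluster alone.

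The TAM contrast was compared between hashtags with female and with male sex-linked transcripts. The interaction test called 0 of 7 members in edgeR, 0 in DESeq2 and 0 at an unadjusted p below 0.05, against 0.0171% of 11724 genes called. Sparc had a log2 fold change of -0.27 ± 0.05 (SE) in the 6 female and -0.23 ± 0.06 in the 4 male hashtags within that model. It was called in the female hashtags (adjusted p = 0.00131, edgeR) and not in the male ones (adjusted p = 0.0649), and a fit of male hashtags alone called 0 members. Olfml3 was likewise called in the female hashtags (adjusted p = 0.0308) and not in the male ones (adjusted p = 0.288).

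The CPM of all 7 members fell in activated cells. These 109 cells held at least 3 UMIs of Lpl, Lgals3, Spp1, Cst7, Gpnmb and Itgax, genes of the disease-associated microglial programme, and the gate uses no member. Crybb1, Selplg and Tmem119 fell most, to between 36.5% and 38.9% of the resting level, Ltc4s and Ecscr to 50.5% and 52.5%, and the secreted Sparc and Olfml3 least, to 69.1% and 72.1%. In this comparison 11.5% of 8283 genes were called and 5.99% were called lower. As in every state here, levels are shares of all UMIs. Activated cells were deeper, with a median of 6284 UMIs against 4872 per resting cell. A lower share therefore need not be an equal fall in UMIs of the gene per cell, which was not tested. Cells were summed in the 5 hashtags with at least 10 activated cells (TAM1, TAM2, TAM4, Oil1 and Oil5) and compared with resting cells of the same hashtag, with the hashtag as a block in edgeR's test, and all 7 were lower in 5 of 5 hashtags.

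Selplg stood at 778.5, 697.5, 960.0, 432 and 706 CPM in activated cells of TAM1, TAM2, TAM4, Oil1 and Oil5, against 1749, 1814, 1907, 1696 and 1974 CPM in their resting cells. The highest activated value, that of TAM4, lay far below the lowest resting value, that of Oil1. The log2 fold change was -1.37 ± 0.12 (SE, adjusted p = 5.86e-16, edgeR).

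Tmem119 stood at 475, 227, 555, 216 and 584 CPM in activated cells of these hashtags in the same order, against 1080, 1079, 988.6, 1098 and 1115 CPM in resting cells. TAM2 and Oil1 were lowest, with 15 and 14 UMIs behind their values, and no activated value reached a resting one. The log2 fold change was -1.36 ± 0.15 (adjusted p = 2.26e-12, edgeR).

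Crybb1 stood at 172, 106, 104, 216 and 109.5 CPM in activated cells, against 426, 475, 281, 430 and 322 CPM in resting cells, again without overlap. These values rest on 7 to 25 UMIs each. The log2 fold change was -1.45 ± 0.19 (adjusted p = 3.39e-09, edgeR).

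Ltc4s was between 158 and 401 CPM in activated cells and between 528 and 623 CPM in resting cells, with a log2 fold change of -0.98 ± 0.16 (adjusted p = 2.29e-06, edgeR). Ecscr was between 145 and 243 CPM in activated cells and between 265 and 348 CPM in resting cells, with -0.93 ± 0.19 (adjusted p = 9.78e-05). The groups did not overlap for either gene.

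Sparc stood at 1853, 1759, 2080, 2207 and 2007 CPM in activated cells of TAM1, TAM2, TAM4, Oil1 and Oil5, against 2733, 2580, 2758, 2877 and 3166 CPM in resting cells. The groups did not overlap, and the log2 fold change was -0.53 ± 0.10 (adjusted p = 4.00e-05, edgeR). Olfml3 had 586 to 923 CPM in activated and 1008 to 1246 CPM in resting cells, with -0.47 ± 0.12 (adjusted p = 0.00384).

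Some of the 7 calls did not hold in fewer cells or hashtags. In activated cells of no other gate, with 2 hashtags left, Olfml3 (-0.48, adjusted p = 0.197, edgeR) and Ecscr (-0.79, adjusted p = 0.112) lost their calls. In TAM hashtags alone Olfml3 lost its call (-0.37, adjusted p = 0.141), and in the 2 oil hashtags alone Tmem119, Crybb1 and Selplg were called.

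The difference in size between the members was examined within hashtags. Selplg fell further than Sparc in 5 of 5 hashtags, by a mean of -0.89 ± 0.41 (SD) on the log2 scale, as did Tmem119, by -0.996 ± 0.775, and Crybb1, by -0.98 ± 0.39. Selplg also fell further than Olfml3 in 5 of 5, by -0.92 ± 0.18. The exact two-sided sign-flip permutation p was 0.0625 for each of these, which is the smallest that 5 hashtags allow, and 0.0938 after adjustment over 6 such pairs, which were chosen after the values were seen.

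**Figure D3:**
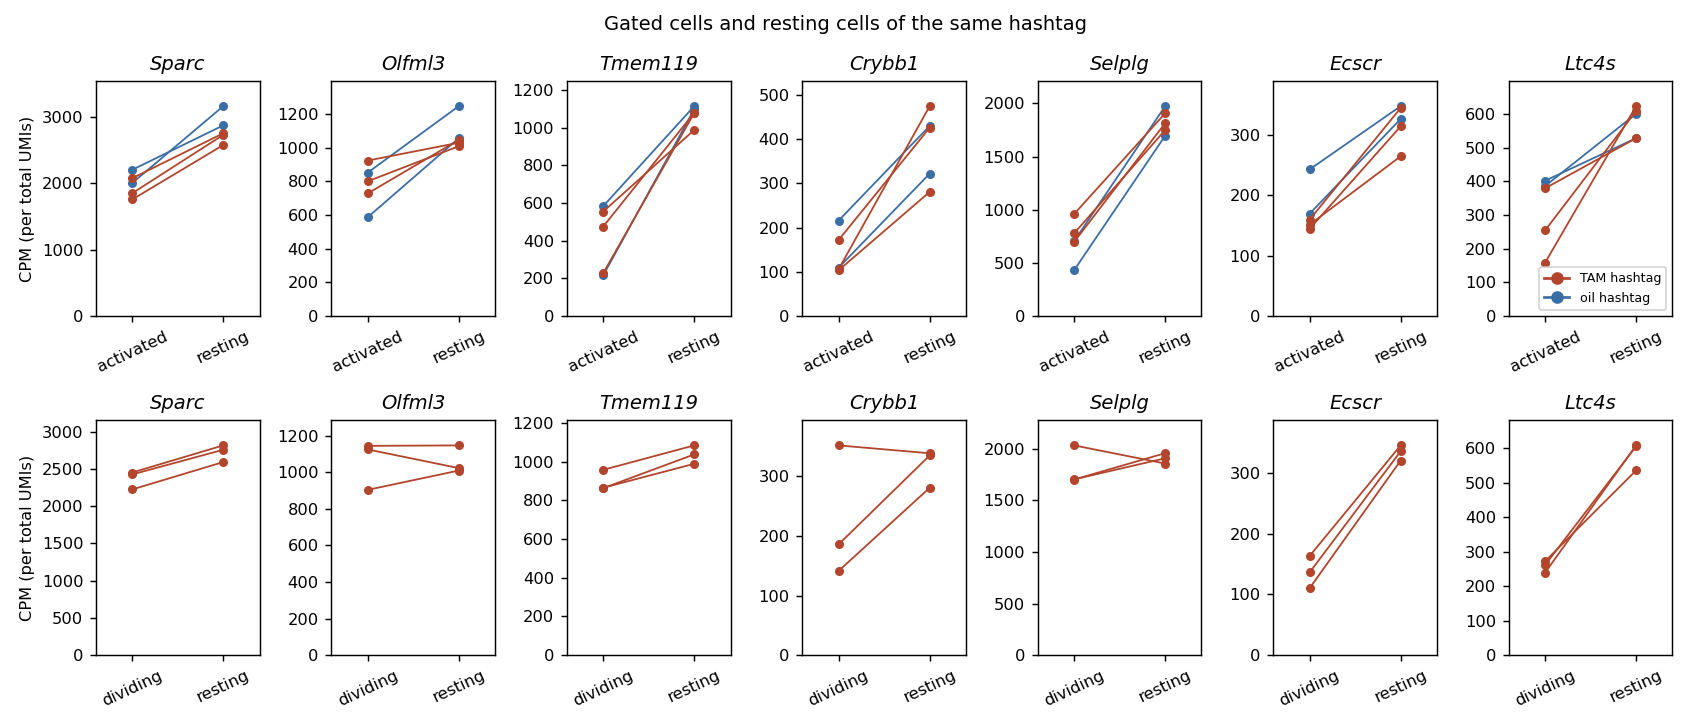
Level of each member (CPM per total UMIs, axes from 0) in activated cells (upper row, 5 hashtags) and dividing cells (lower row, 3 TAM hashtags), each joined to resting cells of the same hashtag. All lines of the upper row rise towards resting cells; in the lower row Ecscr and Ltc4s separate clearly, and Olfml3 and Selplg do not.

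The levels declined in steps with the number of gate UMIs per cell. Over cells pooled from all hashtags, Tmem119 stood at 1074 CPM in 6904 cells with no gate UMI, 911 CPM in 421 cells with 1, 706 CPM in 93 cells with 2, 555 CPM in 67 cells with 3 to 5 and 250 CPM in 42 cells with 6 or more. Over the same steps Selplg stood at 1855, 1646, 1319, 886 and 489 CPM. Sparc stood at 2914, 2658, 2603, 2139 and 1805 CPM. Ecscr was the exception at the last step, with 168 CPM (95% exact Poisson interval 131 to 212) at 3 to 5 and 181 CPM (135 to 239) at 6 or more. Depth moved with the gate, with a median of 4946 UMIs per cell at none and 6316.5 at 6 or more, and its part was not tested. These pooled values are a description without a test.

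**Figure D4:**
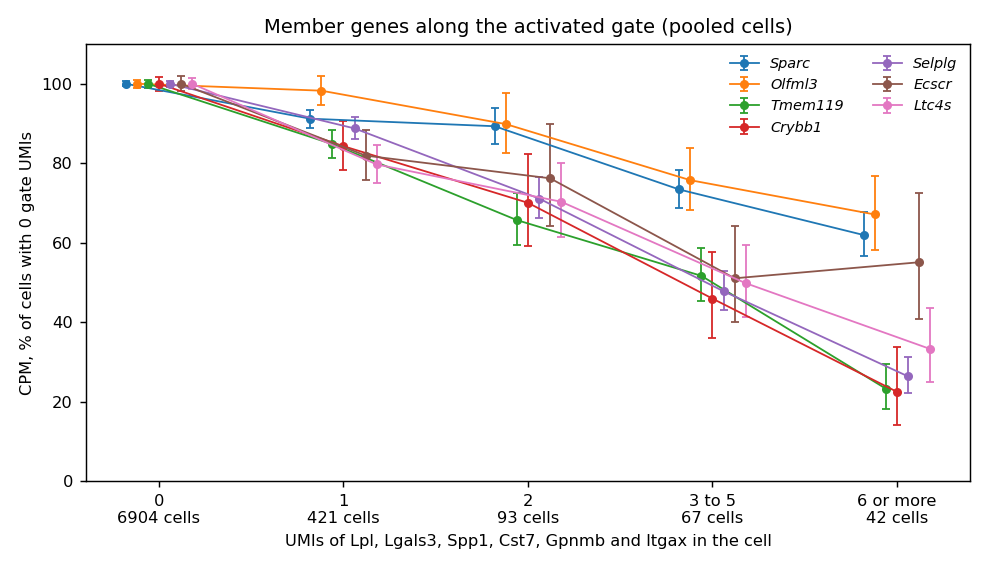
Level of each member in pooled microglia-like cells by the number of UMIs of the 6 activated-gate genes, as a percentage of cells with 0 of them (linear axis from 0; bars are 95% exact Poisson intervals, counting error only). Sparc and Olfml3 stay highest, while Tmem119, Selplg and Crybb1 fall lowest at 6 or more UMIs.

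Other homeostatic genes were lower in activated cells too. Of 24 genes of a homeostatic list without the members, 14 fell, 0 rose and 10 did not pass, with a median log2 fold change of -0.41 against -0.04 for all genes tested. P2ry12, the ADP receptor that steers microglial processes, fell (log2 fold change -1.20 ± 0.11, adjusted p = 5.15e-16, edgeR), as did Siglech, a sialic acid-binding lectin (-0.88, adjusted p = 3.77e-09). Cst3, cystatin C, stood at -0.07 ± 0.07 (adjusted p = 0.627).

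Genes of lists made around Ltc4s and Selplg were among those that fell. Of 13 genes of a leukotriene list, 8 were tested and 4 fell in activated cells. Alox5ap is the protein that presents arachidonic acid to 5-lipoxygenase (log2 fold change -0.69, adjusted p = 0.009, edgeR). Ggt5, which converts leukotriene C4 to D4 (-1.53, adjusted p = 0.0104), and the receptor Cysltr1 (-1.17, adjusted p = 0.000445) fell too. The last was Ptgs1 (-0.94, adjusted p = 1.98e-06), a cyclooxygenase on the list that is not itself a gene of leukotriene synthesis. Of 14 genes of selectin ligand synthesis and binding 7 were tested and 2 fell, the sialyltransferase St3gal6 (-0.88, adjusted p = 2.46e-06) and the tyrosine sulfotransferase Tpst2 (-0.83, adjusted p = 0.00299). Among 15 genes of Sparc relatives and matrix glycoproteins 4 were tested and Adamts1, a secreted protease, rose (1.72, adjusted p = 0.00476). Of 12 crystallin genes 3 were tested and Cryl1 fell (-0.70, adjusted p = 0.0405), and of 9 olfactomedin genes 1 was tested, without a call.

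Markers of other cells were also set beside the activated state. The 14 microglial markers summed to 33086 CPM in activated and 38062 CPM in resting cells. The monocyte and dendritic cell list without the gate gene Itgax summed to 85.2 CPM in activated cells, led by H2-Ab1 at 39.7 CPM and with 6 of 11 genes at 0, against 19.3 CPM in resting cells; Ly6c2, Chil3 and Cd209a were at 0 in all microglia-like cells. The list's part in the fall of the members was not tested.

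In dividing cells the CPM of 5 of the 7 members fell. In 77 cells with at least 3 UMIs of 12 mitotic genes such as Mki67 and Top2a, Ecscr fell to 38.5% and Ltc4s to 40.4% of the resting level, Crybb1 to 61.2%, Tmem119 to 80.7% and Sparc to 81.0%. Olfml3 and Selplg were not called. The 5 members called, all lower, compare with 15.9% of 10226 genes called and 7.25% called lower. The 3 hashtags with at least 10 dividing cells were TAM3, TAM4 and TAM5, so the values describe TAM cells. CPM is a share of all UMIs, and dividing cells were deeper, with a median of 7552 UMIs against 4872 per resting cell. A lower share there need not mean fewer UMIs of the gene per cell, which was not tested.

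Ecscr stood at 110, 163 and 136 CPM in dividing cells of TAM3, TAM4 and TAM5, against 320.0, 345 and 335 CPM in their resting cells. The values rest on 16, 30 and 12 UMIs in dividing cells, and none came near a resting value. The log2 fold change was -1.38 ± 0.19 (SE, adjusted p = 4.16e-11, edgeR).

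Ltc4s stood at 262, 239 and 272 CPM in dividing cells of the same hashtags, against 606, 608 and 536 CPM in resting cells. The groups did not overlap, and the log2 fold change was -1.31 ± 0.15 (adjusted p = 1.46e-15, edgeR). Relative to Selplg within a hashtag, Ltc4s was lower by -1.10 ± 0.09 (SD) and Ecscr by -1.23 ± 0.27 on the log2 scale in 3 of 3 hashtags; an exact sign-flip permutation test of 3 hashtags cannot go below p = 0.25, the value found for both.

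Crybb1 stood at 186, 141 and 352 CPM in dividing cells, against 335, 281 and 339 CPM in resting cells, so TAM5 went against the other two. Its log2 fold change was -0.71 ± 0.18 (adjusted p = 0.000743, edgeR), and without TAM4 it was -0.51 (adjusted p = 0.151). Sparc (-0.30 ± 0.09, adjusted p = 0.0105) and Tmem119 (-0.31 ± 0.11, adjusted p = 0.0402) were lower in 3 of 3 hashtags, but Tmem119 lost its call whichever hashtag was left out, Sparc lost it without TAM3 or TAM4, and both lost it in cells of no other gate. Selplg had a log2 fold change of -0.19 ± 0.10 (adjusted p = 0.199) and Olfml3 one of -0.12 ± 0.11 (adjusted p = 0.551). DESeq2 called Ecscr and Ltc4s alone.

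Of the 24 homeostatic list genes 16 fell in dividing cells and 1, Serpine2, rose, with a median log2 fold change of -0.43 against -0.06 for all genes tested. P2ry12 had a log2 fold change of -0.88 (adjusted p = 2.48e-18, edgeR). In the leukotriene list 3 of 8 tested genes fell, Alox5ap (-0.50, adjusted p = 0.0489), Ggt5 (-1.25, adjusted p = 0.0244) and Cysltr1 (-1.09, adjusted p = 0.000244). In the selectin ligand list 2 of 8 fell, St3gal6 (-0.47) and Tpst2 (-0.96), and Tpst1 rose (2.11). Timp2 fell among 3 tested matrix genes, and no crystallin or olfactomedin gene was called. The microglial markers summed to 26816 CPM in dividing cells, against 38062 CPM in resting cells, and the monocyte list without gate genes to 96.0 CPM, against 19.3 CPM, led by Plac8 at 48.0 CPM in dividing cells. The list of CNS-associated macrophages summed to 49.7 CPM in dividing cells, all of it Mrc1, the gene for the CD206 that the sort selected against, with the other 7 of 8 genes at 0, against 10.0 CPM in resting cells. The part of these lists in the result was not tested. The same difference in depth, a median of 7552 UMIs per dividing cell against 4872 per resting cell, applies to these lists.

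**Figure D5:**
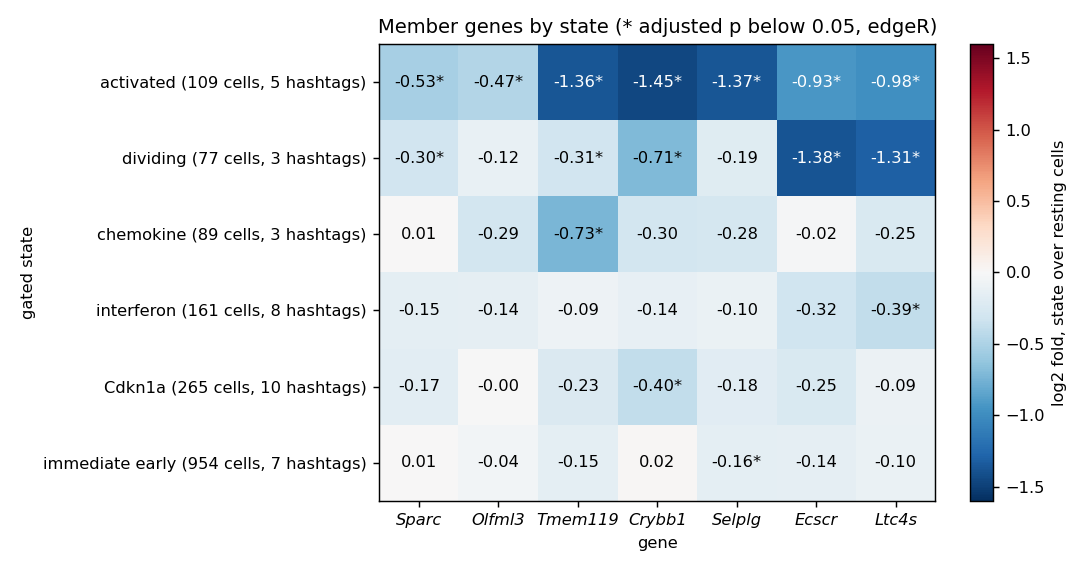
Log2 fold change of each member (columns) in each gated state over resting cells of the same hashtags (rows, with the cells of the state and the hashtags tested); an asterisk marks an adjusted p below 0.05. The activated row is called throughout, from -1.45 for Crybb1 to -0.47 for Olfml3, and the chemokine, interferon, Cdkn1a and immediate early rows have 1 call each.

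In each of the other 4 states 1 member fell. In 89 cells with at least 10 UMIs of the chemokines Ccl3 and Ccl4, Tmem119 fell to 60.5% of the resting level, where 1.62% of 8213 genes were called and 0.183% called lower. Tmem119 stood at 709, 640 and 611 CPM in chemokine-high cells of Oil1, Oil2 and Oil3, the 3 hashtags with at least 10 such cells, against 1098, 1072 and 1105 CPM in resting cells. The groups were far apart, with a log2 fold change of -0.73 ± 0.12 (SE, adjusted p = 0.000274, edgeR), but without Oil1 the adjusted p was 0.126. Sparc stood at 0.01 ± 0.09 on this scale. These cells overlap other gates, since 56 of the 89 also passed the immediate early gate and 12 the activated gate.

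In 161 cells with at least 3 UMIs of 12 interferon-induced genes, Ltc4s fell to 76.1% of the resting level, and the other members did not pass; 2.74% of 8820 genes were called and 0.816% called lower. Over 8 hashtags, Ltc4s ranged from 277 to 588 CPM in interferon cells and from 528 to 623 CPM in resting cells. The ranges overlapped, Oil4 was higher in interferon cells, and the log2 fold change was -0.39 ± 0.10 (adjusted p = 0.00346, edgeR). DESeq2 called no member in this comparison, with 2 at an unadjusted p below 0.05. In cells of no other gate the log2 fold change of Ltc4s was -0.30 and the call was lost (adjusted p = 0.136, edgeR). The monocyte and dendritic cell list summed to 68.9 CPM in interferon cells, led by Plac8 at 26.7 CPM and with 3 of 11 genes at 0, against 19.3 CPM in resting cells. Mrc1, which encodes CD206, stood at 17.8 CPM in interferon cells, against 9.60 CPM in resting cells. The part of these markers in the lower Ltc4s was not tested.

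In 265 non-dividing cells with at least 2 UMIs of Cdkn1a, the p21 inhibitor of the cell cycle, Crybb1 fell to 75.9% of the resting level, where 1.46% of 8579 genes were called and 0.478% called lower. Crybb1 ranged from 184 to 384 CPM in these cells and from 281 to 475 CPM in resting cells over 10 hashtags. It was lower in 9 of 10, the exception being Oil4, and the log2 fold change was -0.40 ± 0.09 (adjusted p = 0.00384, edgeR). DESeq2 called no member, with 4 at an unadjusted p below 0.05, and the call was also lost in cells of no other gate.

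In 954 cells with at least 10 UMIs of the 8 immediate early genes, Selplg stood at 89.7% of the resting level, where 2.02% of 9699 genes were called and 0.0928% called lower. Over the 7 hashtags used, Selplg ranged from 1472 to 1837 CPM in these cells and from 1696 to 1974 CPM in resting cells, and was lower in 6 of 7, TAM1 being the exception. The log2 fold change was -0.16 ± 0.05 (adjusted p = 0.04, edgeR), and the call was lost without Oil1, Oil2, Oil3 or Oil4 and in cells of no other gate. Sparc stood at 0.01 ± 0.04 and Crybb1 at 0.02 ± 0.06 in these cells. The monocyte and dendritic cell list without gate genes summed to 32.0 CPM in chemokine-high, 29.7 CPM in Cdkn1a and 17.5 CPM in immediate early cells, against 19.3 CPM in resting cells.

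Homeostatic list genes were also called lower in 3 of these states. Of 24 genes, 2 fell in chemokine-high cells (Csf1r and Siglech), 5 in interferon cells (P2ry12, Cx3cr1, Gpr34, Fcrls and Slc2a5), 6 in Cdkn1a cells (P2ry12, P2ry13, Csf1r, Siglech, Slc2a5 and Cst3) and 0 in immediate early cells. Ptgs1 fell in interferon and in Cdkn1a cells. Adamts1 rose in chemokine-high and in immediate early cells. St3gal6 fell in interferon cells and rose in immediate early cells, and Tpst1 rose in interferon cells.

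For TAM over oil, the same lists gave few calls. Of the 24 homeostatic genes 3 fell and 0 rose, with a median log2 fold change of -0.07 against -0.00024 for all genes tested. Cst3 averaged 31519 ± 1306 CPM in TAM and 38310 ± 2631 CPM in oil, a log2 fold change of -0.28 (adjusted p = 0.00349, edgeR). Bin1, a membrane-bending adaptor, fell as well (-0.18, adjusted p = 0.0158). In the matrix list Adamts1 fell (-2.47, adjusted p = 0.0305), with 7.59 ± 6.61 CPM in TAM and 41.2 ± 34.1 CPM in oil, and Timp2 stood at -0.16 (adjusted p = 0.0619). Thbs1 (adjusted p = 0.708) and Mmp14 (adjusted p = 0.738) were not called.

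No gene of the leukotriene, selectin ligand, crystallin or olfactomedin lists was called for TAM over oil. In the leukotriene list Alox5ap stood at -0.18 (adjusted p = 0.09, edgeR) and Alox5, the 5-lipoxygenase, at 0.40 (adjusted p = 0.091), with Abcc1 at 0.13 and Ptgs1 at 0.07. In the selectin ligand list the smallest p-values were those of Gcnt1 at 0.15 and St3gal6 at -0.11 (both adjusted p = 0.118), followed by Tpst1 at 0.25 and Msn at 0.07. Among crystallins, Crybg3 stood at 0.21 (adjusted p = 0.0958), Cryba4, the neighbour of Crybb1, at -0.16 (adjusted p = 0.267), Cryz at -0.10 and Cryl1 at 0.01. Olfm4 stood at 0.34 and Olfml2b at 0.14.

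Because Sparc and Ecscr are also expressed by endothelial cells, and Sparc by other glia, markers of those cells were summed. The 12 endothelial and vascular markers summed to 41.0 to 49.8 CPM in TAM and 44.0 to 51.5 CPM in oil, with Cldn5, Ly6c1, Esam and Rgs5 at 0. The 8 astrocyte markers summed to 290 to 321 CPM in TAM and 258 to 334 CPM in oil, of which Slc1a3 alone made 296 CPM in resting cells. The sums of both lists overlapped between treatments.

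Across 44 sums of cells per hashtag and cluster, each of at least 20 cells, Sparc and Olfml3 were the most alike pair of members (Pearson r of log2(CPM + 1) 0.95). Crybb1 and Ecscr were the least alike (r = 0.42). Among 4078 genes with a mean of at least 50 CPM, the profiles most like that of Sparc were C1qa, Rpl7 and C1qb (r = 0.95, 0.94 and 0.94), and those most like Olfml3 were Gnai2, Rpl26 and Pfdn5 (0.95, 0.94 and 0.93). Selplg was most like Serinc3, P2ry12 and Siglech (0.88, 0.85 and 0.83). Tmem119 was most like Commd8, Gnai2 and Ywhah (0.90, 0.89 and 0.88), and Crybb1 most like Rhob, Limd2 and Ckb (0.88, 0.86 and 0.85). Ecscr was most like Laptm4a, Ndufa6 and Dhrs3 (each 0.85), and Ltc4s most like Selenop, Syngr2 and Itm2b (0.84, 0.83 and 0.81). These sums share hashtags, library and depth, and include the shallow cluster 6, so the correlations are a description without a test.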

How the data were processed

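Sorted microglia were measured in 1 droplet pool with 10x Genomics reagents (3′ kit, v3.1), per the labels' protocols. Deposited by the authors was 1 matrix of unnormalized UMI counts, with Cell Ranger 7.0.0 named per the file headers and mm10 per the submitters' processing notes; annotation and strand setting are not given there. The treatment of each cell was read from the deposited feature names of the hashtags. The matrix held 9975 barcodes.

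HTODemux (Seurat 5.3.0, positive quantile 0.99) gave 8055 singlets, 1737 barcodes with several hashtags and 183 with none; only singlets were used, doublets within a hashtag remain and no other doublet caller was run. Cells needed 500 genes, 1000 UMIs and at most 10% mitochondrial UMIs, which left 7903. Leiden clustering (scanpy 1.11.5, resolution 0.5, 2000 variable genes without the members and sex-linked genes) gave 8 clusters; 6 were microglia-like by fixed markers, cluster 5 was unnamed because markers of another list led it, and cluster 6 because of its median of 1504.5 UMIs. States were gated on UMIs of non-member genes. A cell can pass several gates. Sex was read from Xist and Y-linked genes.

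Raw counts were summed per hashtag, with at least 10 cells per state, and tested with edgeR 4.0.16 (glmQLFTest, TMM, filterByExpr) at an adjusted p of 0.05 over all genes tested. Standard errors were approximated from the log2 fold and the F statistic (its size over the root of F). DESeq2 1.42.0, no TMM, no filter, other gates, covariates and left-out hashtags were alternatives. The fits were tested on simulated data. Exact Poisson intervals cover counting error only.

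The members and gene lists were chosen with earlier results of these data known. Named genes are the members, up to 4 genes per list with the smallest p for TAM over oil, and the 3 genes most like each member; list genes named for a state are those called there, with P2ry12, Siglech and Cst3 picked after their values were seen. Some list genes that count in these numbers are not reported here by name.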

Additional observations from a re-analysis of the deposited data

How the results depend on the processing

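Of 945 recomputed log2 fold changes of members, 796 kept their direction and their side of the threshold. Counts of members called are not part of the 945 and are given below. The cause of the changes was not tested except where fewer cells or hashtags entered by construction. For TAM over oil, members called in all microglia-like cells were 1 to 2 when 1 hashtag was left out, 0 with the hashtag number as covariate, in the largest cluster alone and in male hashtags alone, and 1, Sparc, without Oil1 to Oil3 and in cluster 0 alone; in resting cells they were 1 to 2, with 0 for the hashtag number, the largest cluster and male hashtags, and 1 for total UMIs alone and without Oil1 to Oil3. Genes called were 502 as reported, 832 without the filter, 868 with sex as a covariate, 255 to 650 when 1 hashtag was left out, 122 in males, 90 with the immediate early covariate, 66 in cluster 0, 37 with the hashtag number, 16 in the largest cluster and 7 without Oil1 to Oil3; in resting cells they were 340 as reported, 665, 664, 104 to 466, 52, 105, 41, 11 and 6, cluster 0 not being refitted. Sex as a covariate also called Ecscr.

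Same-numbered TAM and Oil hashtags correlated in their deviations by 0.33, 0.17, 0.05, 0.13 and 0.12 for numbers 1 to 5, so the numbers were not taken as pairs. With a replicate block the members called stayed 2 and genes called were 874, and 650 in resting cells; the interaction still called 0 members.

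Directions turned as follows, all at an adjusted p above 0.05 unless given. For TAM over oil in all cells, Crybb1 was 0.51 (adjusted p = 0.0155, edgeR) with the immediate early covariate, 0.60 with the hashtag number, 0.12 without Oil1 to Oil3, 0.070 in the largest cluster, 0.073 in males and -0.17 to 0.032 when 1 hashtag was left out; Selplg was 0.032 with total UMIs, 0.017 in the largest cluster, 0.015 in cluster 0, 0.030 in males and -0.043 to 0.025 when 1 was left out; Tmem119 was 0.00098 in males. In resting cells Crybb1 was 0.015 with total UMIs, 0.0049 without the filter, 0.47 (adjusted p = 0.004) with the immediate early covariate, 0.58 with the number, 0.15 without Oil1 to Oil3, 0.090 in the largest cluster, 0.14 in males and -0.11 to 0.081 when 1 was left out; Selplg was 0.0036 in the largest cluster and Ltc4s -0.017 in males.

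In activated cells 7 members were called under each left-out hashtag and 3 (Tmem119, Crybb1 and Selplg) in the 2 oil hashtags alone, 6 (without Olfml3) in TAM hashtags alone and 5 (without Olfml3 and Ecscr) in cells of no other gate; genes called were 956 as reported, 270 in oil, 182 in cells of no other gate and 1596 with every hashtag. In dividing cells members called were 2 to 4 when 1 hashtag was left out, 2 in DESeq2 and 3 with total UMIs and in cells of no other gate, with 1628 genes called as reported, 871 in DESeq2 and 947 without TAM4. In interferon cells they were 0 in DESeq2, with the doubled limit, in cells of no other gate and in oil, and 3 without the filter, and Crybb1 was 0.15 with the doubled limit; genes called were 242, 487 without the filter, 46 with the doubled limit and 127 in oil. In chemokine cells they were 0 to 1 when 1 was left out, 2 without the filter and 3 with every hashtag; Sparc was -0.0057 with total UMIs, -0.11 without the filter, -0.059 against all other cells, -0.17 with every hashtag and -0.063 to 0.024 when 1 was left out, Ecscr -0.30 to 0.16; genes called were 133, 72 in DESeq2, 17 without Oil1, 76 without Oil3 and 695 with every hashtag.

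In immediate early cells they were 0 to 1 when 1 was left out, 2 with total UMIs and without the filter, and 0 in DESeq2, with the doubled limit, in cells of no other gate, against all other cells, after thinning, in TAM and with every hashtag. Sparc was -0.033 without the filter, -0.058 after thinning, -0.032 in TAM, -0.059 with every hashtag and -0.0096 to 0.028 when 1 was left out; Crybb1 was -0.021 without the filter, -0.14 in TAM, -0.0028 with every hashtag and -0.047 to 0.038; Olfml3 was 0.016 with the doubled limit and Tmem119 0.081 after thinning. Genes called were 196, 101 in DESeq2, 130 without Oil1, 121 without Oil3, 116 with the doubled limit, 25 after thinning and 26 in TAM. In Cdkn1a cells members called were 1 to 2 when 1 was left out, 4 without the filter and 0 in DESeq2, with the doubled limit, in cells of no other gate, after thinning and in oil; Olfml3 was 0.052 in DESeq2, 0.042 with total UMIs, 0.10 in oil and -0.026 to 0.013 when 1 was left out, Tmem119 0.068 with the doubled limit and 0.10 after thinning, and Ltc4s 0.0072 in cells of no other gate. Genes called were 125, 71 in DESeq2, 251 without the filter, 46, 55, 42 and 21 in oil. Not fitted, with fewer than 2 hashtags of at least 10 cells, were the doubled and thinned gates of activated cells, the doubled, thinned and exclusive gates and TAM hashtags of chemokine cells, the thinned interferon gate and the oil hashtags of dividing cells. Cluster 0, single sexes and every hashtag were chosen after seeing the data. States of few cells limit the depth: the values of Crybb1 and Ecscr in them rest on few UMIs per hashtag.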
